A study of Mus musculus with 2 samples.

Results

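The PPAR-gamma and LXR lipid-handling genes described here are 10 genes chosen by name: the nuclear receptors Pparg, Nr1h3 and Rxra, the fatty acid genes Lpl, Fabp4, Fabp5 and Plin2, and the cholesterol efflux genes Abca1, Abcg1 and Apoe. They are 10 of the 34745 genes in the deposited table, and each name matched 1 gene. They were measured by RNA sequencing of mouse monocytic myeloid-derived suppressor cells (M-MDSCs), immature monocyte-like cells that restrain T cells. Both groups came from bone marrow of C57BL/6 mice of 6 to 8 weeks, kept 7 days in GM-CSF, a myeloid growth factor, at 50 ng/ml, from which CD11b+Ly6G-Ly6Chigh cells were sorted. CHBP- M-MDSC received GM-CSF alone, and CHBP+ M-MDSC received GM-CSF with CHBP, a peptide derived from erythropoietin. The methods give the dose of CHBP as 20 μM, the dose series of the same study is in nM, and the labels give none. The strain of CHBP+ M-MDSC is labelled C57BL/7, and whether the strains differed was not tested. Each condition is 1 library with no replicate, so CHBP cannot be told apart from any other difference between the 2 libraries, and no test between the conditions was made. In bulk RNA, fewer cells of a type and less RNA per cell cannot be told apart either.

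PPAR-gamma and the LXRs are nuclear receptors that bind DNA as pairs with an RXR and switch on genes when a lipid ligand is present, fatty acid derivatives for PPAR-gamma and oxysterols for the LXRs. In macrophages PPAR-gamma is known for genes of fatty acid uptake, binding and storage, and the LXRs for genes that move cholesterol out of the cell. PPAR-gamma also raises the LXR-alpha gene Nr1h3, which links the 2 branches. GM-CSF is a known inducer of Pparg in alveolar macrophages.

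The promoter of Abca1 is shown because Abca1 was the one gene of the 10 past 1.5-fold between the libraries, a call lost once a trend with transcript length is removed. It was also the one promoter with the nuclear receptor elements looked for among those of the 10 genes that could be searched. LXR-RXR pairs bind direct repeats of a half-site 4 bases apart (DR4), and PPAR-RXR pairs bind repeats 1 base apart (DR1). These were searched on both strands as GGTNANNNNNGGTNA for DR4 and GGTNANNGGTNA for DR1, where N is any base. The windows reached from 250 bases before the start of a gene to 50 bases after it, in RefSeq sequence of build GRCm38.p6. Of the 10 genes, 6 were matched to 12 windows, whereas Fabp4, Fabp5, Lpl and Abcg1 were not matched. The 250 bases before the Abca1 start, chr4:53159896-53160145 on the minus strand, are printed with the DR4 letters in capitals.
Abca1: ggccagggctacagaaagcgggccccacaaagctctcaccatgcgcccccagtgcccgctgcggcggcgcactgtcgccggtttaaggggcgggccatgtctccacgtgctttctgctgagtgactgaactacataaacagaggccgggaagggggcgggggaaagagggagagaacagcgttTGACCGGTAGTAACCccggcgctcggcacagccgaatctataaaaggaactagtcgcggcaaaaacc
The DR4 letters lie 67 to 53 bases before the start and read on the opposite strand from the gene. Among all 32851 promoter windows of the same length, 0.718% held a DR4 and 1.10% held a DR1. None of the 11 other windows, those of Pparg, Plin2, Apoe, Nr1h3 and Rxra, held either, which says only that these letters are not in those windows.

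The deposited counts summed to 16484504 reads for CHBP- and 16280466 for CHBP+ M-MDSC. All 10 genes had reads in both libraries. Together they held 40392 reads in CHBP- M-MDSC, 0.245% of the library (Clopper-Pearson 95% interval 0.243 to 0.247), and 42621 reads in CHBP+ M-MDSC, 0.262% (0.259 to 0.264). Lpl alone held 75.8% and 75.5% of these reads. The levels are FPKM, the reads of a gene divided by its length and by the library total, as deposited, and all intervals here are exact and cover counting error only. By FPKM the order was Lpl, Fabp5, Plin2, Abcg1, Abca1, Rxra, Apoe, Fabp4, Pparg and Nr1h3 in both libraries. The neighbours whose intervals overlapped were Rxra with Apoe, and Pparg with Nr1h3, both in CHBP- M-MDSC. The levels thus ran from the lipase at over 240 FPKM down to receptors near 1 FPKM.

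**Figure D1:**
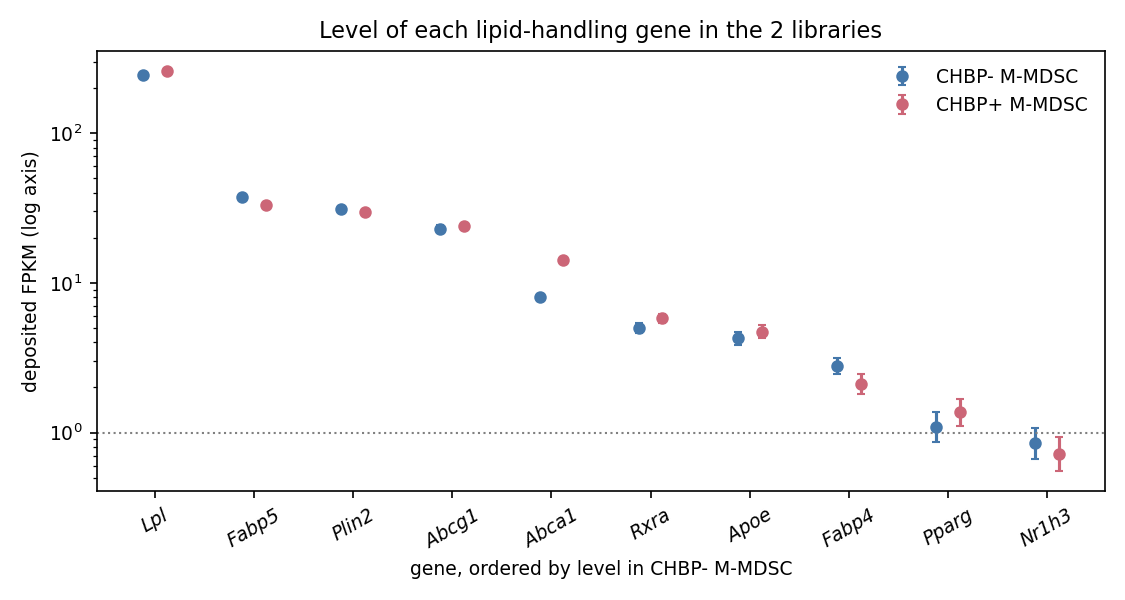
FPKM (log axis) of the 10 genes in the CHBP- and CHBP+ M-MDSC libraries, 1 point per library, with bars for the exact 95% interval of the counting error and a dotted line at 1 FPKM. Lpl is at 242.5 and 257.9 FPKM, Nr1h3 at 0.855 and 0.723, and the pair of points is set widest apart for Abca1.

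The gene length behind an FPKM moved this order. The length implied by the count and the FPKM was 5127 bases for Fabp4, 8.05 times its longest annotated transcript of 637 bases and 1.14 times its whole gene. It was 1.83 times the whole gene for Apoe and 1.04 times for Fabp5, whereas for Abca1 it was 1.03 times the longest transcript. How this length was made is not stated in the sources used here. Scaled to the longest transcript in its place, a level computed after seeing the data, Fabp4 had 22.5 with GM-CSF alone and 17.0 with CHBP, against 2.79 and 2.11 FPKM. On that scale Fabp4 stood above Rxra and Abca1 in both libraries, with Apoe at 17.2 and 19.1 and Abca1 at 8.23 and 14.7. Lpl stayed highest at 451.5 and 480.2, followed by Plin2 at 86.8 and 82.2, and Pparg and Nr1h3 stayed lowest. Fabp5, now below Plin2 at 49.0 and 43.3, was divided by a longest transcript of 3238 bases in a gene of 4060 bases. The longest transcript need not be the one expressed, and which transcript was expressed was not tested. The ratio between the libraries does not depend on this length except through the pseudocount.

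**Figure D2:**
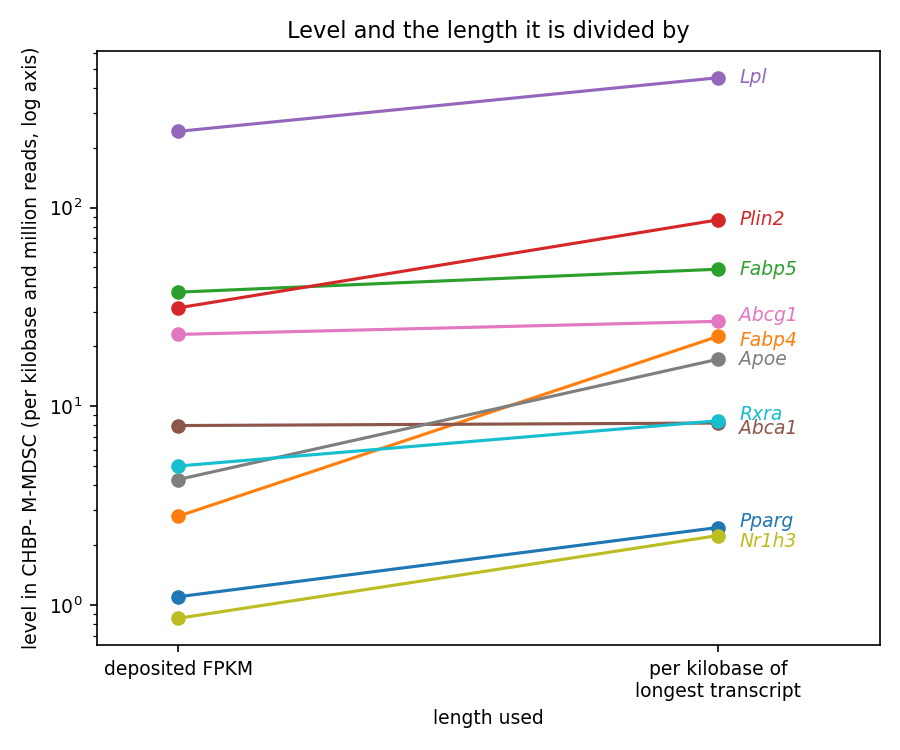
Level of the 10 genes in CHBP- M-MDSC on 2 scales (log axis), as deposited FPKM on the left and per kilobase of the longest annotated transcript on the right, with 1 line per gene. Fabp4 goes from 2.79 to 22.5 between the scales, whereas Abca1 stays at 7.99 and 8.23.

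Differences between the libraries are given below as the log2 ratio, the log2 of FPKM plus 1 in CHBP+ over FPKM plus 1 in CHBP- M-MDSC, a scale on which low genes differ less than their reads, and as the fold of the reads scaled to the library totals. Pparg (ENSMUSG00000000440, chromosome 6 from 115360951 to 115490399), which encodes PPAR-gamma, had 75 reads without CHBP and 93 with it, or 1.10 and 1.38 FPKM. The log2 ratio was 0.18, and the read fold of 1.26 had a 95% interval from 0.916 to 1.73, so that a difference was not detectable at this depth. Nr1h3 (ENSMUSG00000002108, chromosome 2 from 91184061 to 91202834), which encodes LXR-alpha, had 73 and 61 reads, or 0.855 and 0.723 FPKM. This is a log2 ratio of -0.11 with a read fold of 0.846 (0.592 to 1.21), and a difference was likewise not detectable. Nr1h3 was the 1 gene of the 10 under 1 FPKM in both libraries, and it is left out of the counts of genes past a fold. Rxra (ENSMUSG00000015846, chromosome 2 from 27676440 to 27762957), the partner of both receptors, had 683 and 784 reads, or 4.999 and 5.81 FPKM. With a log2 ratio of 0.18 and a read fold of 1.16 (1.05 to 1.29), it stood higher in CHBP+ M-MDSC beyond counting error and under 1.5-fold. Once a trend with transcript length described further on was removed, the log2 ratio of Rxra was 0.03.

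Among the fatty acid genes, Lpl was the most abundant and stood slightly higher in CHBP+ M-MDSC, whereas both binding proteins and the droplet protein stood lower. The direction of Fabp4 and Plin2 turned once the trend with transcript length described further on was removed, to log2 ratios of 0.05 and 0.08. In the same step the log2 ratio of Lpl went to 0.003. Fabp4 is low in FPKM, so the 1 added to each FPKM shrinks its log2 ratio, and the log2 of its read fold was -0.41. Whether its direction turns without that added 1 was not tested. Lpl (ENSMUSG00000015568, chromosome 8 from 68880491 to 68907448) encodes lipoprotein lipase, which frees fatty acids from circulating triglyceride. Lpl had 30627 reads without CHBP and 32172 with it, or 242.5 and 257.9 FPKM. The log2 ratio was 0.09 with a read fold of 1.06 (1.05 to 1.08), and 98.5% of the genes kept had a lower FPKM than Lpl in CHBP- M-MDSC. Fabp4 (ENSMUSG00000062515, chromosome 3 from 10204088 to 10208576) encodes a fatty acid-binding protein of adipocytes and macrophages and is a classical PPAR-gamma target. It had 236 and 176 reads, or 2.79 and 2.11 FPKM, the log2 ratio being -0.29 and the read fold 0.755 (0.618 to 0.922). Fabp4 thus stood 1.32-fold lower in CHBP+ M-MDSC (1.085 to 1.62) before that step, and the median log2 ratio of genes with similarly short transcripts was -0.35. Fabp5 (ENSMUSG00000027533, chromosome 3 from 10012548 to 10016607), a related binding protein whose gene lies nearby on the same chromosome, had 2616 and 2283 reads, or 37.6 and 33.2 FPKM. The log2 ratio of Fabp5 was -0.17 with a read fold of 0.884 (0.835 to 0.935). The reads of Fabp4 per read of Fabp5 were 0.0902 and 0.0771, a ratio of folds of 0.855 whose interval from 0.693 to 1.05 covered 1. Plin2 (ENSMUSG00000028494, chromosome 4 from 86648386 to 86670060) encodes perilipin 2, which coats lipid droplets. It had 2703 and 2525 reads, or 31.3 and 29.6 FPKM, with a log2 ratio of -0.08 and a read fold of 0.946 (0.896 to 0.999). Its interval ended just under 1.

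Among the efflux genes, Abca1 was higher in CHBP+ M-MDSC and Abcg1 and Apoe were within counting error. Abca1 (ENSMUSG00000015243, chromosome 4 from 53030787 to 53159895) encodes the transporter that loads cholesterol onto lipid-poor apolipoprotein and is a classical LXR target. Abca1 had 1392 reads without CHBP and 2450 with it, or 7.99 and 14.3 FPKM. Its log2 ratio was 0.76 with a read fold of 1.78 (1.67 to 1.91), the one member past 1.5-fold. Abcg1 (ENSMUSG00000024030, chromosome 17 from 31057698 to 31115777), a transporter that passes cholesterol to high-density lipoprotein, had 1593 and 1647 reads, or 23.0 and 24.1 FPKM. That is a log2 ratio of 0.06 with a read fold of 1.05 (0.977 to 1.12). Apoe (ENSMUSG00000002985, chromosome 7 from 19696109 to 19699166), a secreted apolipoprotein that accepts cholesterol, had 394 and 430 reads, or 4.27 and 4.72 FPKM. The log2 ratio of Apoe was 0.12 with a read fold of 1.11 (0.962 to 1.27). The reads of Abca1 per read of Abcg1 went from 0.874 to 1.49, a ratio of folds of 1.70 (1.55 to 1.87), and the ratio of folds of Abca1 over Apoe was 1.61 (1.38 to 1.88). These pairs were chosen after their values were seen, so the ratios are descriptions. With the trend with transcript length removed the log2 ratio of Apoe (0.35) was above that of Abca1 (0.27), an order not tested against counting error.

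**Figure D3:**
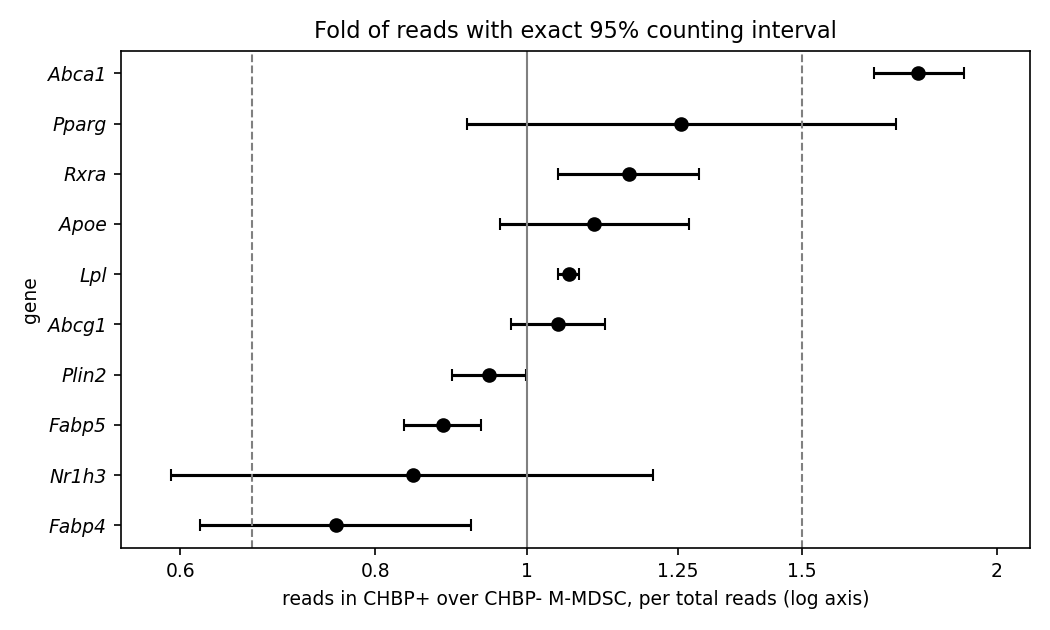
Fold of reads, CHBP+ over CHBP- M-MDSC (log axis), for the 10 genes, with exact 95% intervals of the counting error and dashed lines at 1.5-fold in each direction. Abca1 at 1.78 is the only point past a dashed line, and the intervals of Pparg, Nr1h3, Abcg1 and Apoe cover 1.

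Over the 10 genes, 6 had a log2 ratio above 0 and 4 below. The interval of the read fold lay above 1 for Abca1, Lpl and Rxra, below 1 for Fabp4, Fabp5 and Plin2, and covered 1 for the other 4. Plin2 was at the edge, its interval ending at 0.999 with reads scaled to the library totals, and intervals under other scalings were not computed. Counts past 1.5-fold were taken over genes that reached 1 FPKM in either library, which were 10948 genes and 9 of the 10. Of these 9, 1 was at least 1.5-fold higher, against 3.42% of all genes kept, and 0 were at least 1.5-fold lower, against 2.89%. The median log2 ratio of the 9 was 0.09, and that of all genes kept was -0.03, with 10% of them under -0.38 and 10% over 0.37. Apart from Abca1, the 9 other genes lay between -0.29 and 0.18, inside that range. Of all genes kept, 46.3% were above 0.

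The log2 ratio followed transcript length across the table, and this bears on Abca1, whose longest transcript has 10262 bases. Spearman's rho of the log2 ratio with the longest GENCODE M1 transcript was 0.658 over 10508 genes kept, which share both libraries and are no replicates of each other. Across the 10 genes it was 0.527. The genes kept were split by length into 10 bins. In the bin with the longest transcripts, 6081 to 23407 bases, the median log2 ratio was 0.36 and 16.2% were at least 1.5-fold higher. In the bin with the shortest, up to 1110 bases, the median was -0.35 and 14.7% were at least 1.5-fold lower. Abca1 at 0.76 lay above the median of its bin, where 72 of 1051 genes were at or above it. The median length in that bin was 7416 bases, so most of its genes were shorter than Abca1. Fabp4 at -0.29, a value shrunk by the pseudocount, lay in the bin of the shortest transcripts, slightly above its median of -0.35. Pparg at 0.18 had 72 of 1051 genes of similar length at or above it, against a median of -0.18, and Apoe at 0.12 had 63 of 1051, against a median of -0.25. Fabp5 at -0.17 had 177 of 1050 at or below it, against a median of -0.01. The bin of Fabp5 rests on the longest of the 3 transcripts annotated for it, 3238 bases in a gene of 4060 bases. The bins of its shorter transcripts were not tried.

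**Figure D4:**
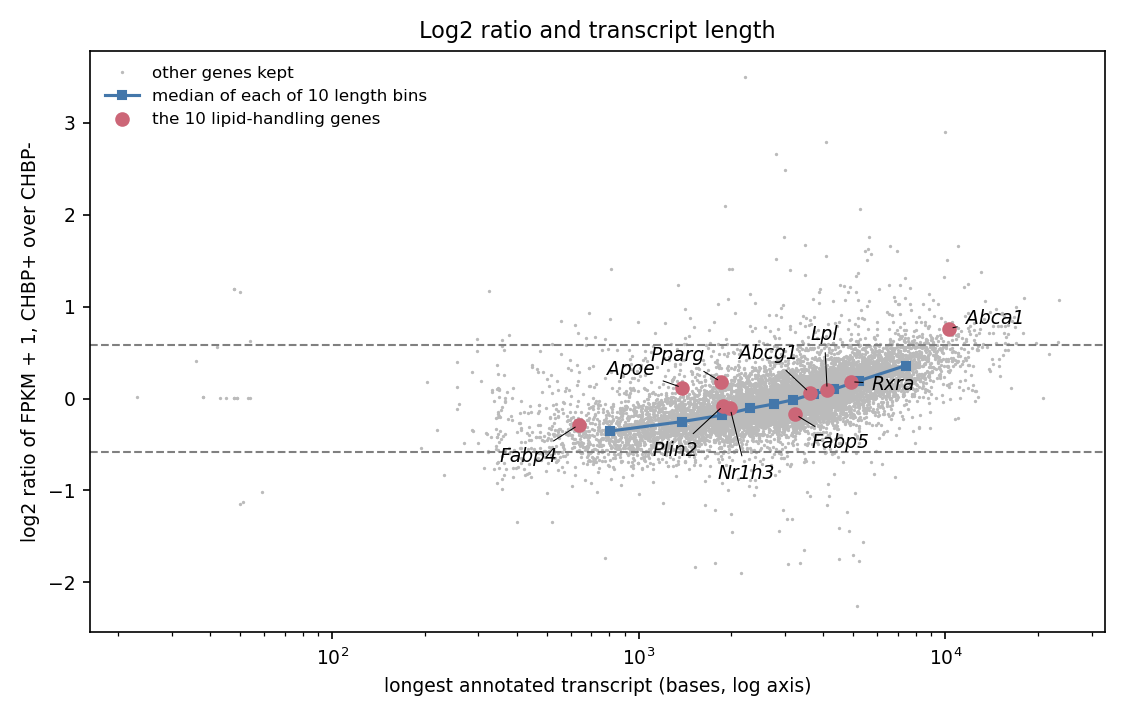
Log2 ratio against the length of the longest annotated transcript (bases, log axis), with 1 grey point per gene kept, the median of each of 10 length bins in blue, the 10 lipid-handling genes in red and dashed lines at 1.5-fold. The blue line climbs from -0.35 to 0.36, and Abca1 sits to the right of its last point, above the median of its bin.

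After a cubic polynomial of the log2 ratio on log10 transcript length was subtracted, a step chosen after seeing the data, the SD of the genes around the trend was 0.26. The log2 ratio of Abca1 was then 0.27 and no longer past 1.5-fold. None of the 9 genes kept was past 1.5-fold in either direction, against 2.18% of all genes higher and 1.06% lower, and the median of the 9 was 0.05. The residual log2 ratios of Apoe and Pparg were 0.35 and 0.34, above that of Abca1. Before the trend was removed, their counting intervals ran from -0.05 to 0.28 and from -0.07 to 0.43. The order of the residuals was not tested against counting error. Short transcripts gain from the subtraction alone: a gene without reads and with a longest transcript of 1364 bases had a residual of 0.23. The residual of Fabp5 was -0.17, a value that rests on its longest transcript, and shorter ones were not tried. Fabp4, Plin2 and Nr1h3 passed from below 0 to 0.05, 0.08 and 0.04. Lpl, Abcg1 and Rxra lay within 0.03 of 0 on this scale. The log2 of the read fold, which has no pseudocount, was -0.41 for Fabp4 and -0.24 for Nr1h3. Whether Fabp4 and Nr1h3 change sign without the pseudocount was not tested. With the deposited length in place of the transcript length, Abca1 kept 0.62 and stayed past 1.5-fold, so its count depended on which length was used. What makes the ratio follow length was not tested.

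The genes that surround these 10 in the pathways were counted as lists, which were chosen with earlier results of these data known. Among 17 other receptors, partners and cofactors, 12 were kept, 8 above 0 and 4 below, with a median of 0.22, and 1 was at least 1.5-fold higher. It was Ncor1, a corepressor of nuclear receptors, with 2783 and 4527 reads and a log2 ratio of 0.66. The median transcript of the list has 7429.5 bases, and with the length trend removed its median was 0.03 and that of Ncor1 alone 0.23. Cebpb and Cebpa, transcription factors that work with PPAR-gamma in adipocytes, were the most abundant of the list at 61.2 and 15.4 FPKM in CHBP- M-MDSC and 40.9 and 13.0 in CHBP+ M-MDSC. Nr1h2, which encodes LXR-beta, had 1279 and 1169 reads, many times those of Nr1h3, and 8.92 and 8.25 FPKM. Ppara, Rxrg and Nr1h4 had no reads, which at a floor of 3 reads allows up to 0.182 and 0.184 CPM, reads scaled to the library total.

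Among 17 other PPAR targets, most of them enzymes of fatty acid oxidation, 15 were kept, 5 above 0 and 10 below, with a median of -0.14. None was past 1.5-fold in either direction, and with the length trend removed the median was 0.00442. The most abundant were Acadl, a dehydrogenase of fatty acid oxidation, at 77.2 and 70.2 FPKM, and Ucp2, a mitochondrial carrier, at 73.6 and 65.0. Pdk4 and Cidec had no reads. Among 17 other LXR targets, 13 were kept, 8 above 0 and 5 below, with a median of 0.08, and -0.02 after the trend was removed. The 1 past 1.5-fold was Apoc2, an apolipoprotein that activates lipoprotein lipase, which was lower with 36 reads without CHBP and 14 with it (read fold 0.394, 0.196 to 0.748). It reached 1 FPKM only without CHBP, at 1.51 against 0.595, and with the trend removed its log2 ratio was -0.33, no longer past 1.5-fold. Scd2 and Elovl5, enzymes that desaturate and lengthen fatty acids, were the most abundant, Scd2 at 132.9 and 157.4 FPKM and Elovl5 at 50.3 and 52.0. Apoc1, Abcg5 and Abcg8 had no reads. Neither list of targets held a gene past 1.5-fold in the direction of Abca1.

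Of 14 genes of cholesterol uptake, storage and release, all 14 were kept, 10 above 0 and 4 below, with a median of 0.24, and 0.10 after the length trend was removed. The 1 past 1.5-fold was Lrp1, an endocytic receptor for lipoprotein remnants, with 4444 and 7833 reads and a log2 ratio of 0.79, or 0.10 after the trend was removed. Before that step its read fold of 1.79 (1.72 to 1.85) was close to that of Abca1. Npc2, which carries cholesterol out of lysosomes, was the most abundant at 223.2 and 193.3 FPKM, and the scavenger receptor Msr1 followed at 144.4 and 172.2. Of 15 genes of triglyceride storage and lipolysis, 14 were matched and 11 kept, 3 above 0 and 8 below, with a median of -0.10, and -0.04 with the trend removed. Lpin2, a phosphatidate phosphatase, was at least 1.5-fold higher with 261 and 831 reads, a log2 ratio of 1.06, and it stayed so at 0.85 with the trend removed. Abhd5, a coactivator of triglyceride lipolysis, had 19.9 and 17.2 FPKM, and Dgat2, which makes triglyceride, had 15.6 and 12.1. Of 7 other fatty acid-binding protein genes, 5 had no reads and the other 2 stayed under 1 FPKM, so that Fabp4 and Fabp5 carried nearly all reads of their family. Among 4 other perilipin genes, Plin3 stood at 68.9 and 66.7 FPKM, above Plin2 on this scale, whereas Plin1, Plin4 and Plin5 had no reads.

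**Figure D5:**
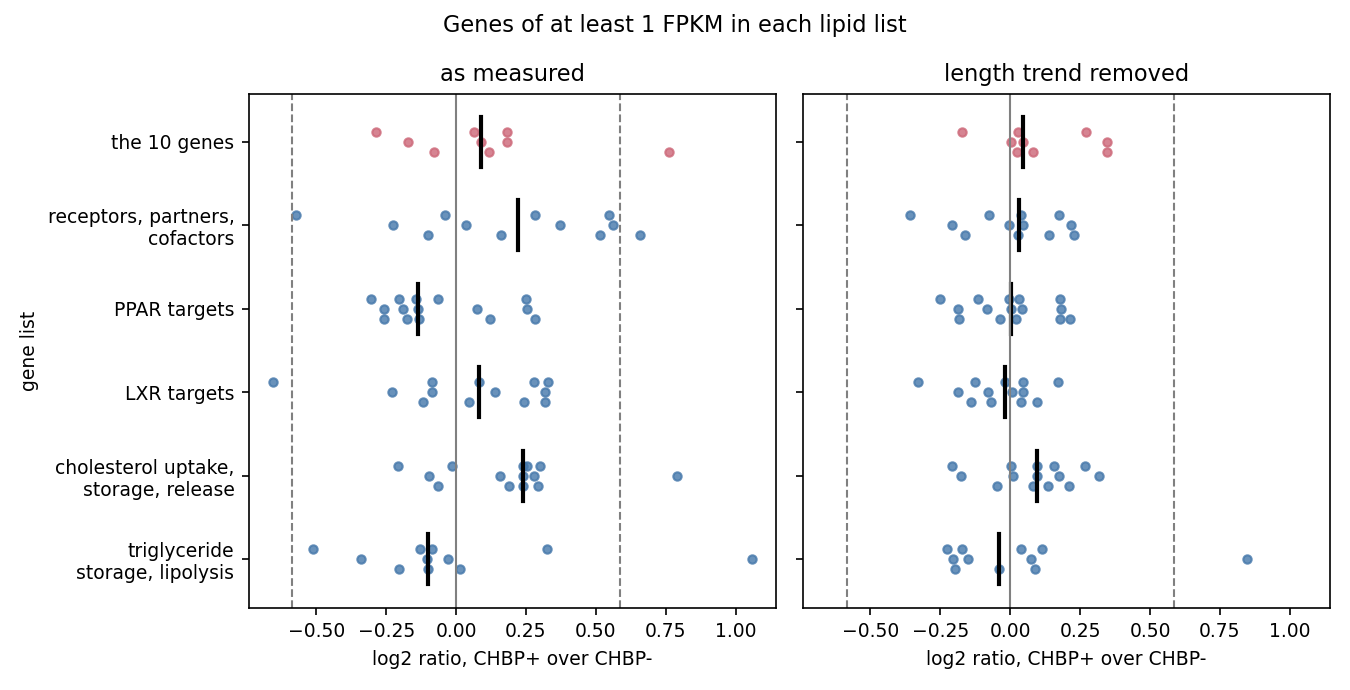
Log2 ratio of each gene kept in the pathway lists, 1 point per gene, as measured (left) and with the trend with transcript length removed (right), with a bar at the median of each list and dashed lines at 1.5-fold. On the left the medians run from -0.14 for other PPAR targets to 0.24 for the cholesterol genes, with Abca1, Ncor1, Lrp1 and Lpin2 past the upper line, and on the right only Lpin2 is past it.

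Markers of the sorted cells and of other cells were checked because Fabp4, Lpl and Plin2 are also fat cell genes. Adipocyte and stromal markers were near the floor: 0 of 9 were kept, Adipoq, Lep, Plin1 and Cidea had no reads, and the highest stood at 0.201 FPKM without CHBP and 0.159 with it. The 6 sorting and monocyte markers, which are 7 entries because Itgam is listed under 2 identifiers, were all kept, 4 above 0 and 3 below. The Itgam entries overlap each other, so they are not separate measurements, and with 1 entry per gene the list summed to 336 and 400.9 FPKM, and without Itgam to 178.9 and 168.5 FPKM. Ly6c2 was lower in CHBP+ M-MDSC with 4091 and 2411 reads, a log2 ratio of -0.73, or -0.41 and no longer past 1.5-fold with the length trend removed. One Itgam entry, which has no transcript length here, was higher at 0.61. The most abundant were the other Itgam entry, which like it encodes CD11b, at 157.0 and 232.4 FPKM, and Csf1r, the receptor of M-CSF, at 112.9 and 125.7. Macrophage markers summed to 1185 and 1213 FPKM with 7 of 8 kept, 5 above 0 and 2 below, led by Chil3 at 530.4 and 546.0 and Cd68 at 284.2 and 286.3. Dendritic cell markers summed to 231.5 and 239.6 FPKM with 4 of 6 kept, 1 above 0 and 3 below, with a median log2 ratio of -0.22. They were led by Itgax, the one kept above 0, at 106.8 and 141.9 FPKM and H2-Ab1 at 104.0 and 81.4. Mast cell and basophil markers summed to 203.6 and 178.8 FPKM with 5 of 6 kept, 2 above 0 and 3 below, led by Cpa3 at 141.4 and 129.6. Of these, Mcpt8 was lower at 46.1 and 29.9 FPKM, a call lost with the trend removed (-0.30), and Ms4a2 was higher at 2.46 and 6.11, a call that stayed (1.13). Neutrophil markers summed to 1945 and 1394 FPKM with 7 of 7 kept and 6 below 0, led by the calprotectin genes S100a9 at 1269 and 937.1 and S100a8 at 576.3 and 390.6. The sum is mostly that of the calprotectin genes, and which cells expressed them was not tested. Far below them stood Mpo at 19.3 and 14.9 FPKM, Ly6g at 2.185 and 2.116 and Camp at 1.76 and 1.38. Ltf, the one above 0, stood at 1.54 and 1.625. Elane, neutrophil elastase, was the 1 past 1.5-fold, at 75.2 and 46.3 FPKM, and at -0.39 it was not past it with the trend removed. The list has a median transcript of 601 bases, and its median log2 ratio went from -0.36 to -0.09 in that step. All 6 erythroid markers were below 0, summing to 1305 and 601.8 FPKM, and 3 globin genes were at least 1.5-fold lower, Hbb-bs at 708.0 and 212.1, Hbb-bt at 209.8 and 134.5 and Hba-a2 at 151.2 and 96.9. With the trend removed Hbb-bs stayed past 1.5-fold at -1.42, Hbb-bt and Hba-a2 did not at -0.31 and -0.29, and the median of the list went from -0.61 to -0.30. Near-identical globin genes can share reads, so their values are uncertain. These genes were read from sorted cells, and the part of such other cells in the values of the lipid genes was not tested.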

How the data were processed

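RNA of 1 CHBP- and 1 CHBP+ M-MDSC library was sequenced as single-end reads. The labels' processing notes name HISAT2 2.0.4, Cufflinks 2.1.1 and Cuffdiff on mm10, whereas the study's methods name TopHat2, HT-seq and mm9. The authors deposited raw read counts and FPKM per gene. In the deposited values, an FPKM is the count per kilobase of a length fixed for each gene and per megaread counted. Coordinates are as deposited, and all 10 genes overlapped their RefSeq gene on GRCm38. Strand and multi-mapping in the counting are not stated in the sources used here. Spans of Pparg and Nr1h3 overlap genes with under 10 reads.

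Samples were grouped by their labels. A gene was kept from 1 FPKM in either library, with a pseudocount of 1 and a fold of 1.5 as threshold. No count model was used, as single libraries give no replicate spread. The interval of the read fold is a 95% Clopper-Pearson interval, which covers counting error only, since 1 library per condition gives no replicate spread. It takes reads as independent molecules, and where they are not, it is too narrow. GENCODE M1 (mm9) gave transcript lengths by identifier, for 96.0% of genes kept. Named genes are the 10, and of each other list those kept past 1.5-fold and the 2 most abundant in CHBP- M-MDSC. Nr1h2, the neutrophil markers Mpo, Ly6g, Camp and Ltf, and the pairs of genes compared were chosen after their values were seen. The 10 genes and all lists were chosen with earlier results of these data known. Alternatives were a pseudocount of 0.1, CPM, no filter or 5 FPKM, a fold of 2, setting the median to 0, leaving out overlapping genes, scaling by the trimmed mean of M values with edgeR (version 4.0.16, under R 4.3.3), and removal of a cubic trend with length. The scripts were tested on simulated data. Python 3.11.15, numpy 2.4.6, pandas 2.3.3, scipy 1.17.1 and matplotlib 3.10.9 were used.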

Additional observations from a re-analysis of the deposited data

How the results depend on the processing

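With 1 library per condition, no replicate could be left out, and no paired analysis was possible because each condition has 1 library. The log2 ratios of all 10 genes stayed within their counting intervals with CPM, with trimmed mean of M values, with a pseudocount of 0.1 and per kilobase of the longest transcript, and no overlapping gene had enough reads to remove any of the 10. The number at least 1.5-fold higher was 0 instead of 1 with a fold of 2 and 0 with the trend with transcript length removed, and it was 1 under the other alternatives. The median log2 ratio of the 9 lipid-handling genes kept was 0.12 with the median of all genes set to 0, and 0.047 with the transcript trend removed. In that last setting, chosen after seeing the data, 6 of 10 genes left their intervals and 3 changed sign (Fabp4, Plin2 and Nr1h3). Fabp4 and Nr1h3 are low in FPKM, and whether they change sign without the pseudocount was not tested. Over all genes kept, 374 were higher and 316 lower, or 54.2% higher. A pseudocount of 0.1 gave 665 and 571. The counts were 609 and 395 with CPM, 218 and 209 with a minimum of 5 FPKM, 85 and 46 with a fold of 2, 312 and 168 with the trend with deposited length removed (65.0% higher), and 229 and 111 with the transcript trend removed (67.4% higher). Depth limits Pparg and Nr1h3 most, with under 100 reads each.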

Other observations

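The length behind the deposited FPKM exceeded the whole gene in 779 of 11856 genes with over 50 reads in both libraries together, or 6.57%, Fabp4, Fabp5 and Apoe among them. Over the genes kept, it was 1.67 times the longest annotated transcript in the median.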
